A study of Arabidopsis thaliana with 12 samples.

Results

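AINTEGUMENTA (ANT, AT4G37750) and the AINTEGUMENTA-like genes AIL1 (AT1G72570), AIL5 (AT5G57390), AIL6 (AT5G10510) and AIL7 (AT5G65510) encode plant transcription factors with paired AP2 DNA-binding domains, and their values are described here in shoot apices of Arabidopsis thaliana. With earlier results of these data known, the 5 genes were chosen by identifier, by a rule without any measured value, from 27416 gene rows. Only 4 of them held enough reads to be tested, among 18807 such genes, because AIL1 was close to absent. The apices came from 3 genotypes with 4 libraries each. The first was ap2-12, mutated in APETALA2 (AP2), a regulator of flower development. The second was rAP2-VENUS #A6 (rAP2-VENUS below), 1 line whose name joins AP2 to the fluorescent protein VENUS. The third was wild type (WT, Col-0). The labels give neither the meaning of the r nor the promoter of the construct, and do not say whether the line keeps the endogenous AP2 gene. Plants of all genotypes grew in long days, with 16 h light and 8 h dark, and were sampled when the main stem was 1 cm tall. The labels describe the 4 replicates of a genotype as biologically independent, and their wording points to pools of 15 apices.

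The AP2 family of plants splits into a branch with AP2 itself, whose mRNAs carry a site for the microRNA miR172, and a branch with ANT, the AIL genes, the PLETHORA genes and BABY BOOM, whose mRNAs are not known as miR172 targets. ANT keeps cells of young organs dividing and is needed for ovule integuments and for full organ size. AIL6 (also PLT3) and AIL7 (PLT7) act with ANT in flower growth, floral organ identity and the placing of new organs, and AIL5 (PLT5) also acts in organ placing and in germinating seeds. Like AP2, ANT is known as a repressor of the floral identity gene AGAMOUS (AG) in outer floral organs.

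The difference between the branches can be read in the number of bases that pair with miR172. The strand of miR172 encoded by MIR172a lies at chr2:11942918-11942938 on the minus strand of RefSeq's TAIR10.1 assembly and is printed first with its seed, bases 2 to 8, in capitals. Below it stand the 21-base windows of the AP2 mRNA and of each ANT or AIL mRNA that pair best with it, all of them inside coding sequence, with the bases that pair by Watson-Crick rules in capitals.
miR172a: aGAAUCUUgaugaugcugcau
AP2: cTGCAGCATCATCAgGATTCT
ANT: tcGaAtCAcCATCAAGATTCa
AIL1: tTtgAtCATCATCAtcATgaT
AIL5: catCAtCATCcTCAcccTTCT
AIL6: AgGCAtCATCAaCAAGgacgT
AIL7: AgGCAtCATCAaCAAGgTcgc
AP2 paired at 19 of 21 bases, and the other miR172 targets TOE1, TOE2, TOE3, SMZ and SNZ paired at 17 to 20. ANT reached 15 bases, AIL6 and AIL7 reached 14, and AIL1 and AIL5 reached 13. Opposite the seed the order was not the same, since the ANT window paired along the whole seed and the AP2 window had an unpaired g within it. All these windows are best letter matches in each transcript and not evidence of a site.

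AIL6 and AIL7 are the most alike of the members. Their coding sequences were identical at 80.9% of aligned bases, whereas the other pairs of members reached 66.8% to 73.0%. The likeness extends upstream of the genes. Within the 250 bases before each annotated start they share a 49-base stretch with 39 identical bases, given here in capitals, at chr5:3315301-3315349 (plus strand) for AIL6 and chr5:26185396-26185444 (plus strand) for AIL7.
AIL6 upstream: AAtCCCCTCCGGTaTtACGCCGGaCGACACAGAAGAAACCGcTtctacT
AIL7 upstream: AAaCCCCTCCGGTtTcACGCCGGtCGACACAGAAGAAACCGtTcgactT
Its ends were set after the sequences had been seen. The stretch ends 52 bases before the annotated start of AIL6 and 149 bases before that of AIL7. Its longest unbroken run, CGACACAGAAGAAACCG, has 17 bases and occurred in 2 of 26709 upstream windows of the genome, those of AIL6 and AIL7. Every other pair of members shared at most 7 to 11 bases in a row there.

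The upstream windows of AIL5 and AIL6, the members whose level differed between genotypes, were searched for AACAAA, a motif reported to be bound by AP2, on both strands. Each window held 1 copy, shown in capitals, at chr5:23256704-23256953 (minus strand) for AIL5 and chr5:3315151-3315400 (plus strand) for AIL6.
AIL5 window: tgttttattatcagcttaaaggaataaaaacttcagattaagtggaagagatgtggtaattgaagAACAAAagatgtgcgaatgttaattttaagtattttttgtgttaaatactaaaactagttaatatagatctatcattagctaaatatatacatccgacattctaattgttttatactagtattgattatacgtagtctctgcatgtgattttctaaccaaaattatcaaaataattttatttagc
AIL6 window: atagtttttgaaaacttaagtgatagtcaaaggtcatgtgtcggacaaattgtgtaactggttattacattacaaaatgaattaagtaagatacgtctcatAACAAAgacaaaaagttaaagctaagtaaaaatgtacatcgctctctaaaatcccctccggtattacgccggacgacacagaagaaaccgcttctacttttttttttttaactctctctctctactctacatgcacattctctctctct
AACAAA or its reverse TTTGTT stood in 55.3% of all 26709 such windows, so a copy is common. The windows of ANT, AIL1 and AIL7 held none. TGTCTC, the auxin response motif, or its reverse GAGACA stood in 10.9% of windows and in those of AIL1 and AIL7, 1 copy each. No member's window held both motifs, so they did not overlap there.

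AP2, the gene that the genotypes alter, was at 20.6, 15.6, 17.3 and 15.5 CPM (read counts relative to the scaled library total) in ap2-12, at 58.1, 46.6, 41.3 and 42.1 CPM in rAP2-VENUS and at 92.8, 50.3, 42.3 and 44.4 CPM in WT. It was lower in every ap2-12 library than in any other. The log2 fold change was -1.73 (SE 0.23, edgeR adjusted p = 0.000302) in ap2-12 vs WT and -0.28 (SE 0.22, edgeR adjusted p = 0.898) in rAP2-VENUS vs WT. Library totals were 9680133 to 15152704 counts. Of the markers for the labelled tissue, those of shoot meristem and young flower summed to 156 to 184 CPM in ap2-12, 253 to 310 CPM in rAP2-VENUS and 285 to 398 CPM in WT, while CLV3, the stem cell marker, had at most 5 counts in a library. Root and root cap markers summed to at most 1.29 CPM in any library, with FEZ at 0 throughout.

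ANT was by far the most abundant member. It lies at chr4:17739514-17742407 on the plus strand of TAIR10.1, with 8 exons, and encodes 555 amino acids. Levels between genes are compared per kb of annotated exon. In ap2-12, rAP2-VENUS and WT, ANT averaged 132 ± 26.0, 101 ± 13.4 and 105 ± 30.8 CPM per kb (SD, n = 4 each). AIL5 averaged 17.3 ± 1.15, 10.9 ± 1.08 and 9.79 ± 1.25 CPM per kb in the same order of genotypes. AIL6 averaged 8.17 ± 0.674, 12.0 ± 1.19 and 8.86 ± 1.57 CPM per kb. AIL7 averaged 6.26 ± 1.52, 7.67 ± 1.14 and 7.05 ± 2.74 CPM per kb. ANT stood at the 95.4th percentile of 18737 genes in WT, and AIL5, AIL6 and AIL7 at the 40th, 37.4th and 31.8th. In WT the neighbours AIL5 and AIL6, and AIL6 and AIL7, differed by less than the larger SD of the pair. Per kb of coding sequence, which leaves out the untranslated parts, the WT levels were 136 ± 39.8 for ANT, 14.5 ± 1.85 for AIL5, 15.1 ± 2.68 for AIL6 and 9.16 ± 3.55 for AIL7, so that AIL5 and AIL6 changed places.

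AIL1 (chr1:27331381-27333698, plus strand) had 2 reads in all 12 libraries, 1 in ap2-12 replicate 4 and 1 in rAP2-VENUS replicate 2. A count of 0 allows at most 3 counts, which is 0.201 to 0.313 CPM over these library sizes, so AIL1 was not detectable above that limit in 10 libraries. The remaining genes of the branch, known from roots and embryos, were also near 0. PLT1 had 13 counts in all, BBM (BABY BOOM) had 9 and PLT2 had 0. No test was run on these 4 genes.

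**Figure D1:**
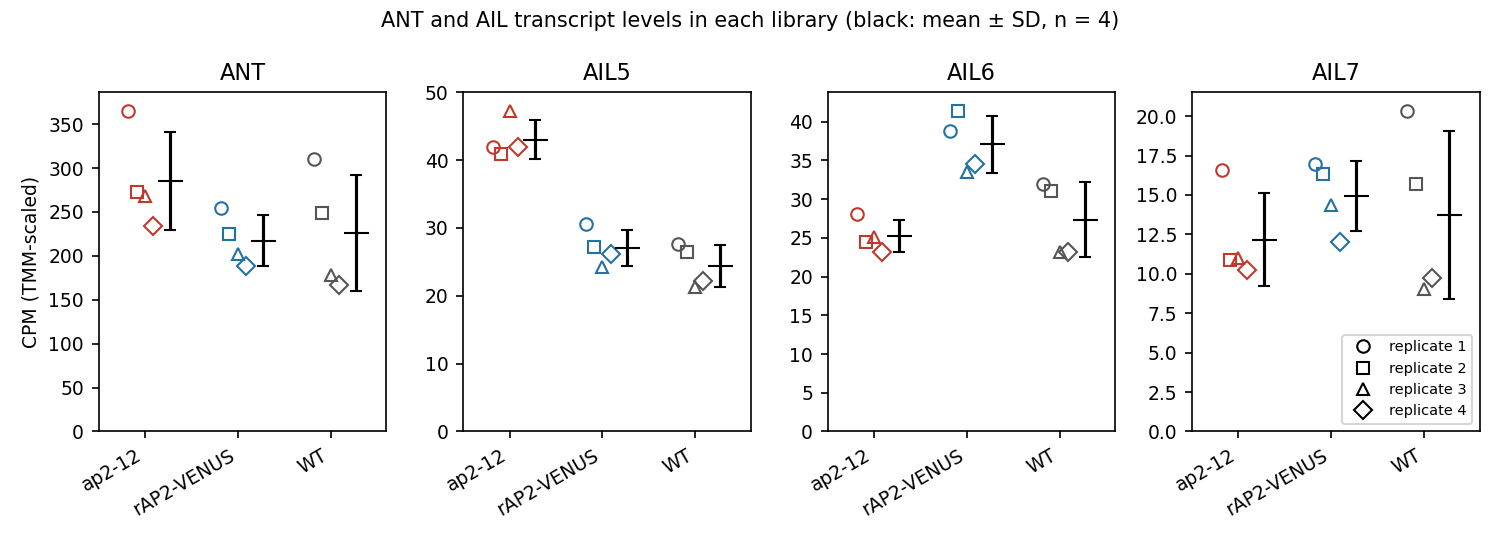
Level of ANT, AIL5, AIL6 and AIL7 in every library, in TMM-scaled CPM on linear axes that start at 0, with ap2-12, rAP2-VENUS and WT from left to right, a symbol shape for each replicate number and the mean ± SD in black (n = 4). The 4 ap2-12 libraries lie above all others for AIL5, at 40.9 to 47.2 CPM, and the 4 rAP2-VENUS libraries lie above all others for AIL6, at 33.6 to 41.3 CPM.

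AIL5 rose in ap2-12, and ANT, AIL6 and AIL7 did not pass the test without a replicate block, with which ANT also passed. In ap2-12 vs WT, 2866 of 18807 genes passed an edgeR adjusted p under 0.05, which is 15.2% of genes, with 5.65% higher and 9.59% lower. Of the 4 members tested, 1 was higher and none lower. Their median log2 fold change was 0.11, against 0.00149 over all genes. Bulk RNA cannot tell fewer cells of a type from less RNA per cell, which holds for every level given here.

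AIL5, a relative of ANT that acts in organ placing, was at 41.9, 40.9, 47.2 and 41.9 CPM in ap2-12 and at 27.6, 26.4, 21.4 and 22.1 CPM in WT. Every ap2-12 library lay above every WT library. The share of all genes whose libraries separate in this way is not given here, for this or the other comparisons. AIL5 was 1.76-fold higher in ap2-12, a log2 fold change of 0.82 (SE 0.10, 95% interval 0.60 to 1.04, edgeR adjusted p = 0.000179). It was called in all 16 alternative settings, with a log2 fold change of 0.77 to 0.88. The gene lies at chr5:23252989-23256703 on the minus strand and overlaps no other annotated gene.

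ANT itself was at 365, 273, 268 and 234 CPM in ap2-12 and at 310, 249, 179 and 167 CPM in WT. The groups overlapped, since WT replicate 1 exceeded 3 of the 4 ap2-12 libraries. The log2 fold change was 0.33 (SE 0.19, 95% interval -0.09 to 0.75, edgeR adjusted p = 0.293). At each of the 4 replicate numbers, however, ANT was higher in the ap2-12 library than in the WT library. With the replicate number as a block ANT was called, at 0.36 (SE 0.08, edgeR adjusted p = 0.00706), where 28.8% of genes were called. AIL6 was at 28.1, 24.5, 25.1 and 23.2 CPM in ap2-12 and at 32.0, 31.1, 23.1 and 23.2 CPM in WT. The values overlapped, and the log2 fold change was -0.11 (SE 0.12, 95% interval -0.38 to 0.15, edgeR adjusted p = 0.597). AIL7, the closest relative of AIL6, was at 16.6, 10.9, 11.0 and 10.3 CPM in ap2-12 and at 20.3, 15.7, 9.07 and 9.74 CPM in WT. Its WT libraries spread on both sides of ap2-12, and the log2 fold change was -0.16 (SE 0.25, 95% interval -0.70 to 0.37, edgeR adjusted p = 0.712).

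**Figure D2:**
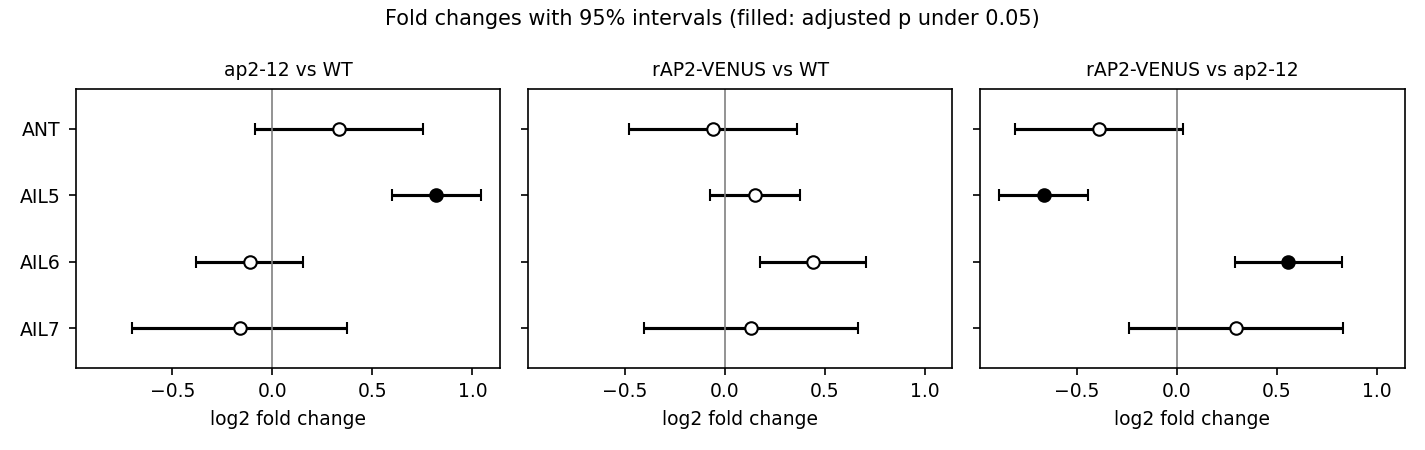
Log2 fold change of the 4 tested members in ap2-12 vs WT, rAP2-VENUS vs WT and rAP2-VENUS vs ap2-12, with 95% intervals from the edgeR fit; filled points passed an adjusted p under 0.05. AIL5 is at 0.82 in ap2-12 vs WT, and in rAP2-VENUS vs ap2-12 AIL5 is at -0.67 and AIL6 at 0.56.

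In rAP2-VENUS vs WT few genes moved, 118 of 18807 or 0.627%, and none of the 4 members passed the threshold (1, AIL6, had an unadjusted p under 0.05, and DESeq2 called none). The median log2 fold change of the members was 0.14, against 0.000549 over all genes. AIL6, which acts with ANT in flower growth, came closest. It was at 38.8, 41.3, 33.6 and 34.5 CPM in rAP2-VENUS and at 32.0, 31.1, 23.1 and 23.2 CPM in WT. All 4 rAP2-VENUS libraries lay above all 4 WT libraries, again without a share over all genes to set beside it. The difference was 1.36-fold, a log2 fold change of 0.44 (SE 0.12, 95% interval 0.18 to 0.71), with an unadjusted p of 0.00344 and an edgeR adjusted p of 0.174. Libraries of these genotypes with the same replicate number deviated together, although rAP2-VENUS replicates 2 and 4 correlated more with another WT number. With the replicate number as a block AIL6 was called, at 0.45 (SE 0.08, edgeR adjusted p = 0.0146), where 2.25% of genes were called.

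The other members overlapped between rAP2-VENUS and WT. ANT was at 254, 225, 202 and 188 CPM in rAP2-VENUS, inside the WT range of 167 to 310 CPM, with a log2 fold change of -0.06 (SE 0.19, 95% interval -0.48 to 0.36, edgeR adjusted p = 0.996). AIL5 was at 30.6, 27.2, 24.2 and 26.1 CPM in rAP2-VENUS and overlapped WT, with a log2 fold change of 0.15 (SE 0.10, 95% interval -0.07 to 0.38, edgeR adjusted p = 0.853). AIL7 was at 17.0, 16.3, 14.4 and 12.0 CPM in rAP2-VENUS, inside the WT range, with a log2 fold change of 0.13 (SE 0.25, 95% interval -0.40 to 0.67, edgeR adjusted p = 0.982).

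Between rAP2-VENUS and ap2-12, AIL5 and AIL6 moved in opposite directions. Here 19.6% of genes were called, 11.7% higher and 7.86% lower, and 2 of the 4 members were called, 1 in each direction. AIL5 was 1.59-fold lower in rAP2-VENUS than in ap2-12, a log2 fold change of -0.67 (SE 0.10, 95% interval -0.89 to -0.45, edgeR adjusted p = 0.000541). AIL6 was 1.47-fold higher, a log2 fold change of 0.56 (SE 0.12, 95% interval 0.29 to 0.82, edgeR adjusted p = 0.00633). For both genes the libraries of the genotypes did not overlap, and both were called in all 16 alternatives. ANT had a log2 fold change of -0.39 (SE 0.19, 95% interval -0.81 to 0.03, edgeR adjusted p = 0.188), and with the replicate block it was called, at -0.38 (edgeR adjusted p = 0.00401), where 33% of genes were called. AIL7 had a log2 fold change of 0.30 (SE 0.25, 95% interval -0.24 to 0.83, edgeR adjusted p = 0.451). The median over members was -0.05, against -0.0121 over all genes. These comparisons share libraries with those against WT, so their values are not independent of them.

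A ratio of 2 members within a library does not depend on how libraries are scaled. The ratios below were chosen after the levels had been seen and are given as a description without a test. The log2 ratio of AIL6 to AIL5 in CPM was -0.91 to -0.58 in ap2-12, 0.34 to 0.60 in rAP2-VENUS and 0.07 to 0.23 in WT. The 3 genotypes did not overlap, AIL5 having more reads than AIL6 in every ap2-12 library and fewer in every other library. The log2 ratio of AIL6 to ANT was -3.70 to -3.33 in ap2-12, -2.71 to -2.44 in rAP2-VENUS and -3.28 to -2.85 in WT, again without overlap. AIL7 to ANT was at -4.65 to -4.46 in ap2-12, -3.97 to -3.78 in rAP2-VENUS and -4.30 to -3.93 in WT, where rAP2-VENUS and WT overlapped. AIL5 to ANT overlapped between all genotypes. Of the summed level of the 4 members per kb of exon, AIL6 made up 5.03% ± 0.408 in ap2-12, 9.17% ± 0.697 in rAP2-VENUS and 6.92% ± 0.725 in WT (SD, n = 4 each), and ANT 80.4% ± 2.02, 76.7% ± 0.912 and 80.1% ± 1.41 in the same order.

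**Figure D3:**
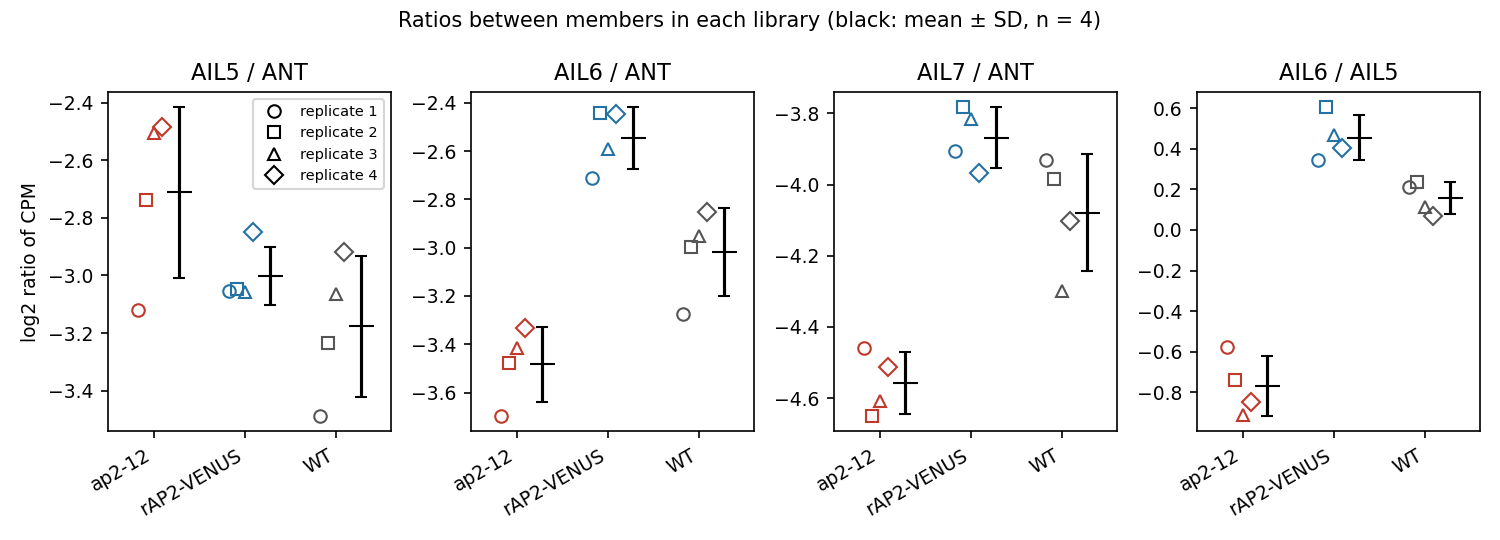
Log2 ratios of AIL5, AIL6 and AIL7 to ANT and of AIL6 to AIL5 in each library, computed from CPM, with ap2-12, rAP2-VENUS and WT from left to right, a symbol shape for each replicate number and the mean ± SD in black (n = 4). The ratio of AIL6 to AIL5 lies below 0 in all ap2-12 libraries, at -0.91 to -0.58, and above 0 in all rAP2-VENUS and WT libraries.

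The members also varied together inside each genotype. ANT was highest in replicate 1 of all 3 genotypes and lowest in replicate 4 of all 3. With genotype in the model, the replicate numbers gave an edgeR adjusted p of 0.00224 for ANT, 0.0141 for AIL7, 0.0513 for AIL6 and 0.496 for AIL5, where 29.5% of all genes passed 0.05. The labels do not say what the numbers stand for beyond replicate. After removing each genotype's mean, the log2 CPM of ANT and AIL7 had a Pearson r of 0.97 over the 12 libraries, AIL6 and AIL7 of 0.93, and ANT and AIL6 of 0.92. AIL5 was less tied to the others, at 0.77 with AIL6, 0.70 with ANT and 0.68 with AIL7. With genotype means left in, ANT and AIL6 were at 0.11 and AIL5 and AIL6 at -0.25. These libraries share genotype and replicate number, so the coefficients are descriptions.

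**Figure D4:**
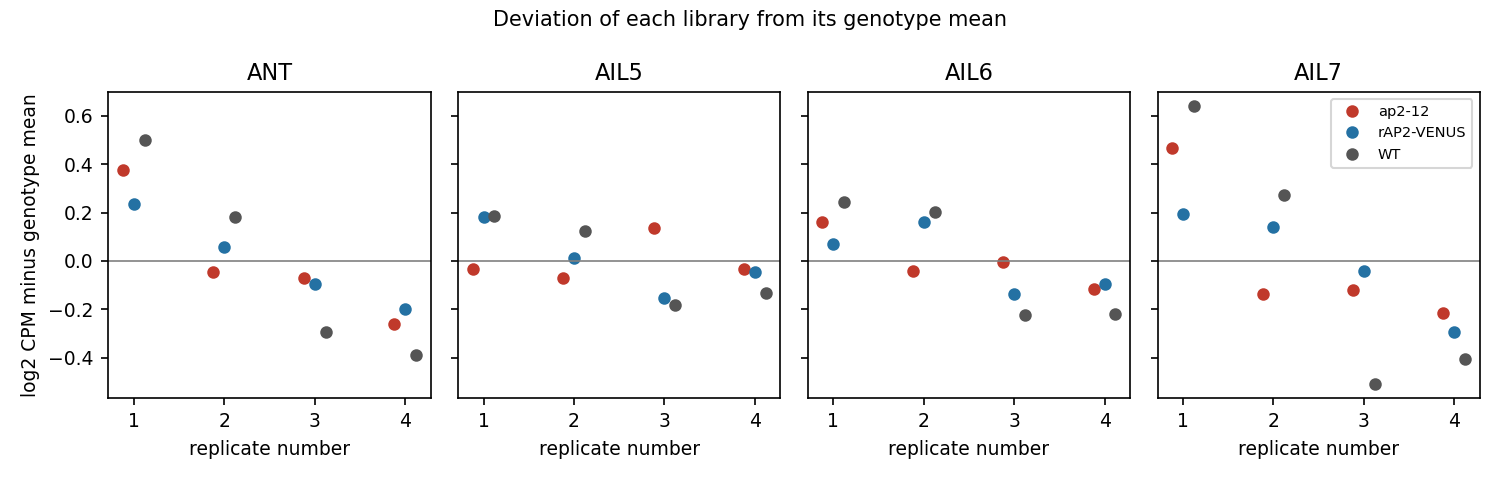
Deviation of log2 CPM from the genotype mean for ANT, AIL5, AIL6 and AIL7 in each of the 12 libraries, by replicate number, coloured by genotype; the numbers are names and carry no order. ANT is above its genotype mean in replicate 1 and below it in replicate 4 in all 3 genotypes, whereas AIL5 in ap2-12 is highest in replicate 3.

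LHY, a clock gene that peaks around dawn, varied in the same way between replicates. It was at 136, 53.0, 35.7 and 20.8 CPM in ap2-12, at 94.3, 42.5, 34.4 and 12.7 CPM in rAP2-VENUS and at 224, 100.1, 22.5 and 22.8 CPM in WT. Replicate 1 was highest in each genotype, as for ANT. Inside genotypes ANT and LHY had a Pearson r of 0.97 and a Spearman rho of 0.94 over 12 libraries, and r was 0.98 without the 2 libraries farthest in LHY, WT replicate 1 and rAP2-VENUS replicate 4. For AIL7 the Pearson r with LHY was 0.95, for AIL6 0.86 and for AIL5 0.66. FKF1, a clock-controlled gene of the later day, ran the other way, at -0.96 with ANT and -0.93 with AIL7. None of the 3 clock genes measured passed the test between genotypes in any comparison without the block. With the block FKF1 was called higher in rAP2-VENUS vs WT, at 1.70 (edgeR adjusted p = 0.0355), and in rAP2-VENUS vs ap2-12, at 1.38 (edgeR adjusted p = 0.011). Within genotypes FKF1 had a Pearson r of -0.87 with AIL6, which the same block called higher in rAP2-VENUS vs WT. The part of harvest time or of any other shared factor in the members' levels was not tested.

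Genes whose levels followed each member most closely over the 12 libraries were taken from 7079 genes that had a symbol and averaged at least 5 CPM. They are given by Pearson r of log2 CPM, as a likeness and nothing more. For ANT the 5 highest were CYP706A3 (0.98), a cytochrome P450, ICK6 (0.98), an inhibitor of cyclin-dependent kinases, PID (0.97), the PINOID kinase that steers auxin transport, APRR2 (0.97) and ATRAD17 (0.97). CYP706A3 was at 244 to 386 CPM in ap2-12, 198 to 275 CPM in rAP2-VENUS and 184 to 345 CPM in WT, a range that overlapped between genotypes like that of ANT. The 5 lowest for ANT were SBP2, COR413IM1, CPD, an enzyme of brassinosteroid synthesis, ACA4 and GSTT1, at -0.98 to -0.96.

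For AIL5 the highest were HB-3 (0.98), the homeobox gene also called WOX9 or STIMPY that keeps cells dividing in the shoot meristem, AG (0.95), the floral identity gene of stamens and carpels, AGO9 (0.95), ASP2 (0.95) and chr31 (0.95). HB-3 was at 41.6, 45.2, 47.5 and 49.2 CPM in ap2-12, at 21.2, 20.7, 18.5 and 20.1 CPM in rAP2-VENUS and at 24.0, 19.1, 13.5 and 15.0 CPM in WT. As with AIL5, the ap2-12 libraries lay above all others. After removing each genotype's mean, r with AIL5 was 0.82 for HB-3, 0.62 for AG, 0.35 for AGO9, 0.58 for ASP2 and 0.50 for chr31. For the 5 highest of ANT it stayed at 0.96 to 0.98. The lowest for AIL5 were NdhU, LUT2, CPN20, RPL27 and TRM26, at -0.97 to -0.96, and at -0.87 to -0.53 after removing each genotype's mean.

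For AIL6 the highest were PHB (0.95), the homeodomain gene PHABULOSA of the upper organ side, AGF2 (0.93), CP1 (0.92), SRF6 (0.92) and EXLA2 (0.92), an expansin-like gene. PHB was at 184, 168, 171 and 147 CPM in ap2-12, at 214, 226, 186 and 193 CPM in rAP2-VENUS and at 193, 178, 145 and 146 CPM in WT. The ap2-12 and WT libraries overlapped, and rAP2-VENUS lay above ap2-12. The lowest for AIL6 were G6PD4, CRH1, JAZ6, ATE1 and Cand8, at -0.92 to -0.90. For AIL7 the highest were ELIP1 (0.97), an early light-induced protein, iqd17 (0.97), CKX5 (0.96), a cytokinin oxidase, PUX4 (0.96) and ARF4 (0.96), an auxin response factor, and the lowest were COAB, TOPP1, RTL1, Cand3 and CYP721A1, at -0.95 to -0.93. ELIP1 was at 90.3 CPM in ap2-12 replicate 1 and at 5.13 to 13.7 CPM in the other ap2-12 libraries, which is the same high replicate as for AIL7.

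A list of 14 genes reported in the literature downstream of ANT or the AIL genes was followed beside them. In ap2-12 vs WT, 4 were called higher and 2 lower, where 5.65% of all genes were higher and 9.59% lower, with a median log2 fold change of -0.03 over the list and 0.00149 over all genes. YUC4, an auxin synthesis enzyme, rose by 1.22 on the log2 scale (SE 0.17, edgeR adjusted p = 0.000338) and TAA1, the enzyme of the step before it, by 0.76 (SE 0.15, edgeR adjusted p = 0.00349). AG rose by 0.95 (SE 0.12, edgeR adjusted p = 0.000154) and CYCD3;2, a D-type cyclin, by 0.42 (SE 0.12, edgeR adjusted p = 0.0311), a call lost without any of 5 libraries taken in turn (ap2-12 replicates 3 and 4, WT replicates 1, 2 and 4). AP3, the petal and stamen identity gene, was lower by a log2 fold change of -1.07 (SE 0.16, edgeR adjusted p = 0.000681) and LFY, the floral meristem regulator, by -0.60 (SE 0.12, edgeR adjusted p = 0.00389). CYCD3;1, the cyclin most often tied to ANT, was at -0.07 (SE 0.15, edgeR adjusted p = 0.798). In rAP2-VENUS vs WT none of the 14 was called by edgeR (median -0.00237, with 1 at an unadjusted p under 0.05), and with the replicate block 1 was, PHB at 0.31 (edgeR adjusted p = 0.366 without the block and 0.0314 with it).

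In rAP2-VENUS vs ap2-12, 3 of the 14 were higher and 5 lower, where 11.7% of all genes were higher and 7.86% lower, with a median of 0.01 over the list and -0.0121 over all genes. AP3 was at a log2 fold change of 1.10, LFY at 0.67 and CUC1, a boundary gene, at 0.62 (edgeR adjusted p = 0.0454), a call lost in 9 of 16 alternatives. AG was at -0.90, YUC4 at -1.26, CYCD3;2 at -0.50, TAA1 at -0.46 and CUC2, also a boundary gene, at -0.44. The calls of TAA1 and CUC2 were lost in 7 and 5 alternatives.

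**Figure D5:**
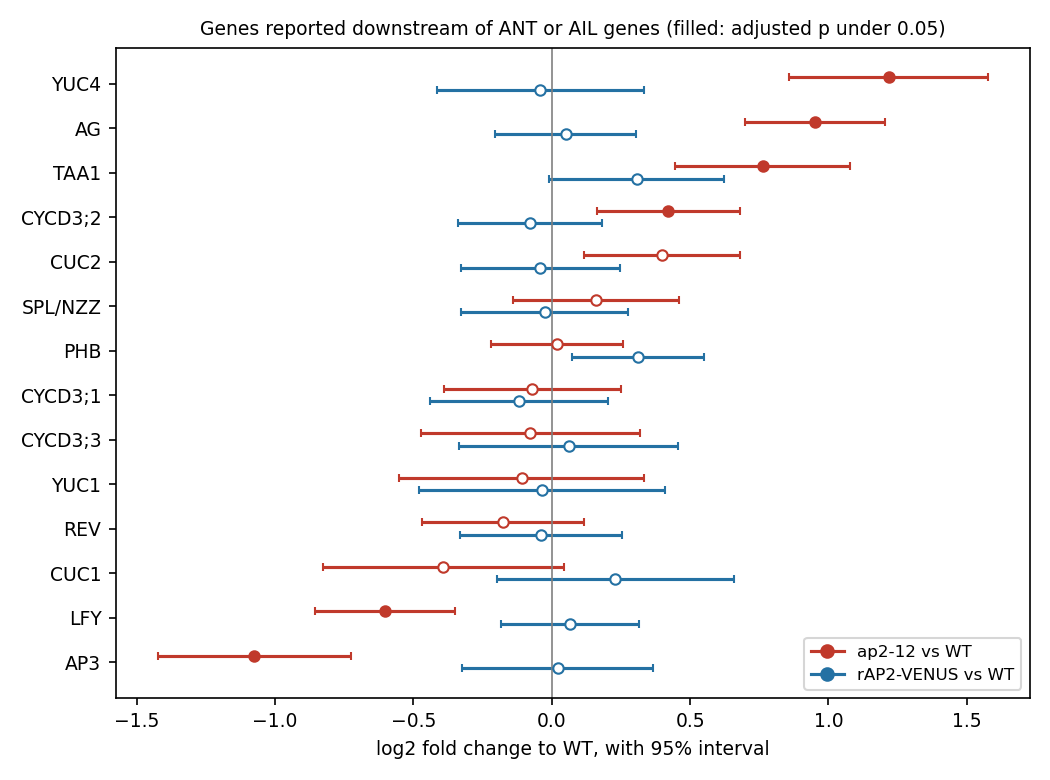
Log2 fold changes, with 95% intervals from the edgeR fit, of the 14 genes reported downstream of ANT or AIL genes, in ap2-12 vs WT (red) and rAP2-VENUS vs WT (blue); filled points passed an adjusted p under 0.05. In ap2-12 vs WT, YUC4 is at 1.22 and AP3 at -1.07, while no gene is called in rAP2-VENUS vs WT.

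Of 6 partners of ANT in carpel development and organ polarity, only YAB3, a gene of the lower organ side, was called without the replicate block. It fell in ap2-12 vs WT, at -0.45 (SE 0.09, edgeR adjusted p = 0.00413), and was higher in rAP2-VENUS vs ap2-12, at 0.53 (edgeR adjusted p = 0.000959). With the block FIL (0.44, edgeR adjusted p = 0.00295) and SLK1 (0.21, edgeR adjusted p = 0.027) were also called higher in ap2-12 vs WT. Of all genes 15.2% were called there without the block and 28.8% with it. In rAP2-VENUS vs ap2-12 the block called 2 of the 6, 1 in each direction, where 33% of genes were called. In rAP2-VENUS vs WT none was called, with or without the block. Of 7 regulators of organ growth that act on ANT or with it, none was called in either comparison with WT. The smallest adjusted p there belonged to ARF2 in ap2-12 (0.18, edgeR adjusted p = 0.146) and to ARGOS in rAP2-VENUS (0.84, edgeR adjusted p = 0.385). ARGOS, which acts upstream of ANT in organ growth, was called in rAP2-VENUS vs ap2-12, at 0.94 (edgeR adjusted p = 0.0443), a call lost in 12 of 15 alternatives. ARGOS was near the floor, with 6 to 9 counts in an ap2-12 library and 8 to 21 in a rAP2-VENUS library. With the block 1 of the 7 regulators was called in that comparison, lower in rAP2-VENUS, and none was called higher. In the related WRINKLED branch, which contains regulators of fatty acid synthesis, WRI1 (-0.44, edgeR adjusted p = 0.0117) and WRI3 (-1.78, edgeR adjusted p = 0.00101) fell in ap2-12 vs WT and neither was called in rAP2-VENUS vs WT. WRI3 was higher in rAP2-VENUS vs ap2-12, at 1.40 (edgeR adjusted p = 0.0036).

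Markers of carpels and ovules, tissues in which ANT is active, moved with genotype. Their 6 genes summed to 238 to 291 CPM in ap2-12, 74.7 to 92.0 CPM in rAP2-VENUS and 88.7 to 138 CPM in WT. All 6 were called higher in ap2-12 vs WT, where 5.65% of all genes were higher. Of these, INO was near the floor, with 5 to 20 counts in the ap2-12 libraries and at most 1 in a WT library. In rAP2-VENUS vs WT none of the 6 was called without the replicate block, and with it CRC, a carpel gene, was lower, at -0.77 (edgeR adjusted p = 0.0103). In rAP2-VENUS vs ap2-12 4 of the 6 were lower, where 7.86% of all genes were lower. With the block all 6 were, where 14.8% of all genes were lower. Tapetum and anther markers summed to 139 to 192, 114 to 170 and 87.9 to 154 CPM, and procambium and cambium markers to 74.3 to 99.6, 96.1 to 139 and 87.8 to 153 CPM, in ap2-12, rAP2-VENUS and WT. In ap2-12 vs WT, where 15.2% of genes were called, 1 of the 4 tapetum and anther markers was called, MS1, higher at 3.57 (edgeR adjusted p = 0.016). Its groups overlapped, with ap2-12 replicate 1 at 2.52 CPM and WT replicate 3 at 3.22 CPM. Of the 3 procambium and cambium markers 1 was called, WOX4, lower at -0.90 (edgeR adjusted p = 0.0239). With the block, where 28.8% of genes were called, AMS was also higher (0.42, edgeR adjusted p = 0.00483). DYT1 was then lower (-0.76, edgeR adjusted p = 0.0324), as were all 3 procambium and cambium markers. In rAP2-VENUS vs ap2-12 WOX4 was called higher, at 0.74 (edgeR adjusted p = 0.0479). With the block all 3 procambium and cambium markers were higher there and 1 tapetum and anther marker was lower, where 33% of genes were called. In rAP2-VENUS vs WT none of these 7 was called, with or without the block. Of the meristem and young flower markers, STM (-1.18, edgeR adjusted p = 0.000206) and AP1 (-1.13, edgeR adjusted p = 6.0e-07) fell in ap2-12 vs WT. With the block KNAT1 was also called lower there (-0.48, edgeR adjusted p = 0.00667). In rAP2-VENUS vs WT AP1 was called lower with the block only, at -0.28 (edgeR adjusted p = 0.0281). The part of a changed mix of tissues in the level of AIL5 or of AIL6 was not tested.

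Reads of the members can be told apart by sequence, the longest identical run between member transcripts being 34 bases, shared by AIL6 and AIL7, against reads of 150 bases. AIL6 (chr5:3315401-3320323, plus strand) overlaps the gene RBK1 on the other strand by 454 of its 3087 exon bases. RBK1 was at 3.36 ± 0.499 CPM in ap2-12, 2.84 ± 0.708 CPM in rAP2-VENUS and 2.49 ± 0.326 CPM in WT (SD, n = 4 each), and was not called in any comparison. Because the strand setting is unknown, reads of the overlap may be counted for either gene or for neither, and their part in the level of AIL6 was not tested. AIL7 (chr5:26185593-26189571, plus strand) overlaps no other annotated gene.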

How the data were processed

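Read counts per gene from polyA RNA of 12 libraries were deposited as whole numbers, on build TAIR10 per the submitters' processing notes. These notes name TopHat2, SAMtools and HTSeq without versions. Whether strand was used in counting was not given in the labels or headers used here. The table has 27416 rows. Of these, 26719 were found in a RefSeq table of TAIR10.1 and 697 were not, and 210 organelle rows hold 0 counts. Gene positions and sequences are RefSeq's (TAIR10.1).

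Genes were kept by filterByExpr (18807). All 12 libraries entered 1 edgeR 4.0.16 quasi-likelihood fit (R 4.3.3) with TMM scaling and genotype as the only term. A gene was called when its p, Benjamini-Hochberg adjusted over all genes kept, was under 0.05. The biological coefficient of variation was 0.174. The fit was also run on simulated counts, whose outcome is not given here and is not used as support for any call. Alternatives were a replicate block, other scalings, DESeq2 1.42.0, limma-voom (limma 3.58.1), other count filters, a fit of the genotypes compared alone, and leaving out each library.

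Library totals of 9680133 to 15152704 set the level below which AIL1 could not be detected, and floors cover counting error only. Within genotypes, every pair of libraries differed beyond sampling noise (chi-square per degree of freedom 5.00 to 45.8). Same-numbered libraries of rAP2-VENUS and WT deviated together across genes (correlations of 0.63, 0.23, 0.20 and 0.43), so the numbers were treated as pairing them.

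The members and lists were chosen with earlier results of these data known. Named genes are the members, AP2, called members of each list (otherwise the 1 with the smallest adjusted p), and the 5 most and 5 least similar genes. Called genes beyond 4 of a list, CYCD3;1, HB-3's values and the ratios were chosen after values were seen.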

Additional observations from a re-analysis of the deposited data

Results flagged for a closer look

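Within each genotype, a library was marked where its gap to the nearest other library was large for the range of the group. Of 15 groups of 4 libraries examined, 3 held such a library, where chance marks about 1 in 20. The groups are genes measured in the same libraries and are not independent, so the count was not tested against that rate. AIL5 was at 47.2 CPM in ap2-12 replicate 3 and at 40.9 to 41.9 CPM in the other ap2-12 libraries, and without that library the call of AIL5 in ap2-12 vs WT stood. AIL7 was at 16.6 CPM in ap2-12 replicate 1 and at 10.3 to 11.0 CPM in the other ap2-12 libraries, and LHY was also highest in that replicate. AP2 was at 92.8 CPM in WT replicate 1 and at 42.3 to 50.3 CPM in the other WT libraries.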

How the results depend on the processing

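AIL5 in ap2-12 vs WT, and AIL5 and AIL6 in rAP2-VENUS vs ap2-12, kept direction and call in all 16 alternatives. The replicate block, with which ANT was also called in ap2-12 vs WT and rAP2-VENUS vs ap2-12, raised members called to 2 and genes called to 5419 (28.8%) in ap2-12 vs WT, to 1 and 424 in rAP2-VENUS vs WT, and to 3 and 6215 (33%) in rAP2-VENUS vs ap2-12. In ap2-12 vs WT the same-numbered libraries correlated at -0.01 to 0.60 and in rAP2-VENUS vs ap2-12 at 0.05 to 0.56, so not every pair there exceeded the 0.1 set for treating numbers as pairs. In each of the 3 comparisons 2 of 4 libraries of the first-named genotype correlated best with their own number, and 29.5% of genes differed between replicate numbers. DESeq2 called 340 genes in rAP2-VENUS vs WT, with AIL6 at an adjusted p of 0.0516. Leaving out 1 library gave 55 to 108 genes there, and AIL6 stayed at 0.37 to 0.52 (edgeR adjusted p 0.137 to 0.435). Uncalled signs turned when 1 library was left out for AIL7 in ap2-12 vs WT (-0.35 to 0.074, WT replicate 1), ANT in rAP2-VENUS vs WT (-0.18 to 0.13, WT replicate 1 or rAP2-VENUS replicate 4) and AIL7 in rAP2-VENUS vs WT (-0.024 to 0.37, WT replicate 3 or 4). The cause was not tested. AIL1 had 2 counts in all, and depth sets only the level below which it could not be detected.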
